A study of Mus musculus with 36 samples.

Results

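The genes described here are *Hpgds*, *Ephx1*, *Pld4*, *Tspan32* and *Etfbkmt*, 5 of 19938 genes measured in dendritic cells (DCs) grown from mouse bone marrow. They were chosen by their difference between cultures treated with soluble thrombomodulin (sTM) and untreated cultures. *Hpgds*, *Ephx1* and *Pld4* had the smallest p-values for sTM in a limma model of sorted DCs, and *Etfbkmt*, *Tspan32* and *Hpgds* had the largest proportion-weighted F (PWF) of treatment in a mixed model of the same arrays. PWF is the squared F-value of a term divided by the sum of the F-values of sorting, treatment and their interaction. The differences between sTM-treated and untreated cultures are therefore given for these genes as a description, with no test.

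Thrombomodulin (TM) is a membrane protein of endothelium and of some DCs that binds thrombin, and sTM is a recombinant human form without the membrane anchor. The study asked how gene expression differs between DCs that carry TM (TM+) and DCs that do not (TM-), and whether it differs when the cultures have received sTM. Bone marrow of Balb/c mice aged 10 to 12 weeks was grown in medium with 100 ng/ml GM-CSF, the cytokine that drives DC growth from marrow, and all cells were harvested on day 6. The sTM-treated cultures received 200 nM sTM on day 4, whereas the untreated cultures received none.

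DCs were sorted with a TM antibody and magnetic beads to a stated purity above 93%. TM+ DCs of sTM-treated cultures (6 arrays) and TM- DCs of sTM-treated cultures (6 arrays) came from experiments 2, 3 and 4. TM+ and TM- DCs of untreated cultures (4 arrays each) came from experiments 3 and 4 only. Unsorted DCs of sTM-treated cultures (8 arrays) and of untreated cultures (8 arrays) came from experiments 1, 2 and 3. Arrays of a group carry the label of biological replicates. No source used here says if each array had its own culture or its own mouse, so that the p-values below rest on array spread, which may be technical.

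The 5 genes belong to separate branches of biochemistry. *Hpgds* encodes hematopoietic prostaglandin D synthase, a glutathione-dependent enzyme that makes prostaglandin D2, a lipid mediator released by mast cells, some T helper cells and antigen-presenting cells. *Ephx1* encodes microsomal epoxide hydrolase, which turns reactive epoxides into diols. *Pld4* encodes a member of the phospholipase D family that degrades single-stranded nucleic acid in endolysosomes and so limits the ligands of nucleic acid-sensing Toll-like receptors. *Tspan32* encodes a tetraspanin of hematopoietic cells, a membrane protein that organizes receptors at the cell surface, and *Etfbkmt* encodes a mitochondrial enzyme that methylates lysines of the beta subunit of electron transfer flavoprotein.

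In the mouse assembly GRCm38.p6, RefSeq places *Hpgds* at chr6:65117293-65144981 and *Ephx1* at chr1:180989556-181017569, both on the minus strand. *Pld4* lies at chr12:112760446-112768986, *Tspan32* at chr7:143004907-143019486 and *Etfbkmt* at chr6:149141476-149151171, all on the plus strand. The promoter windows of the 3 genes with the smallest limma p-values are shown because their levels in TM+ DCs set the sTM-treated and untreated arrays apart. Each window holds 300 bases of RefSeq sequence on the strand of the gene, most of them before a start site and the last 50 from it, and the capitals mark GAGGAA, the core that the hematopoietic factor PU.1 binds. The windows are chr6:65144681-65144980 for *Hpgds*, chr1:181017520-181017819 for *Ephx1* and chr12:112760405-112760704 for *Pld4*. The start site is that of 1 transcript per gene, which the sequence table does not name. It is the outer end of the gene for *Ephx1* and lies 251 bases inside the gene's span for *Hpgds* and 209 bases inside it for *Pld4*, so that the *Hpgds* window falls wholly within the span.
Hpgds: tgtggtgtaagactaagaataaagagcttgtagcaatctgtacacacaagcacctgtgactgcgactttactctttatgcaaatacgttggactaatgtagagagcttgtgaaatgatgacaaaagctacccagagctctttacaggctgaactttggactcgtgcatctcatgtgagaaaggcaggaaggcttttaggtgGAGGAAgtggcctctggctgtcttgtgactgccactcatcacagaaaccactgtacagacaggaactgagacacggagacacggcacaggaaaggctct
Ephx1: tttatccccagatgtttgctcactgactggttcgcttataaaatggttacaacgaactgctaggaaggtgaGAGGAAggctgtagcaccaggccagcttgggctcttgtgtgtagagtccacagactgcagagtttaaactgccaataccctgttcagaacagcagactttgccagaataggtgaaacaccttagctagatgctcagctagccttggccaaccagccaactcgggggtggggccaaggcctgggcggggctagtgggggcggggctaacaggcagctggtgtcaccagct
Pld4: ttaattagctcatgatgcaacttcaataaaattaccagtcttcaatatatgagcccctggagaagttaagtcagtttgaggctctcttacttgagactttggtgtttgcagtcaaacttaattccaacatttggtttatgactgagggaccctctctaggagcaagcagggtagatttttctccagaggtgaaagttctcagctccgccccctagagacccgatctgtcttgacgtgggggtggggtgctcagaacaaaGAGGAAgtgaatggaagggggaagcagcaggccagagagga

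With the start site of its window counted as base 1 and the base before it as -1, GAGGAA stood on the gene's own strand from -49 to -44 in *Hpgds*, from -179 to -174 in *Ephx1* and from 10 to 15 in *Pld4*. It was also found from -18 to -13 in *Tspan32* (start site 139 bases inside the span), so that 4 of the 5 windows held it on one of the strands, against 28.3% of all 32851 windows of this length. The GATA string AGATAA was found in 1 of the 5 windows (*Tspan32*) and in 11.2% of all windows. The AP-1 string TGANTCA, the antioxidant response string TGACNNNGC and the interferon-stimulated response element (ISRE, its core repeat) were found in 0 of the 5 windows, and in 7.81%, 12.4% and 3.44% of all windows. Both strands were searched for each string, and a match is a description of the letters only.

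The array medians lay between 6.60 and 6.81 log2 units of intensity. Of 20 measured markers of conventional DCs, 11 lay above the 75th percentile of all genes, among them *Itgax*, *Cd74* and *H2-Aa*, and 1 (*Xcr1*) lay below the 25th percentile. Markers of other cells were also bright, with 6 of 14 macrophage markers and 7 of 18 neutrophil markers above the 75th percentile, while 9 of 18 mast cell and basophil markers and 10 of 14 T and NK cell markers lay below the 25th. *Thbd*, the mouse gene for TM, averaged 6.16 log2 units and was 0.24 log2 units higher in TM+ than in TM- DCs (standard error 0.12, limma adjusted p = 0.12), in 6 of 10 array pairs. In RNA of a cell population, fewer cells of a type and less RNA per cell cannot be told apart.

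All levels below are log2 intensities of 1 transcript cluster per gene. Averaged over the 36 arrays, they were 8.81 for *Pld4*, 8.34 for *Ephx1*, 7.97 for *Etfbkmt*, 6.89 for *Tspan32* and 6.47 for *Hpgds*, and these averages stood at the 76.8th, 69.9th, 64.6th, 47.7th and 39.4th percentile of all genes. Different genes rest on different probes, so that the order of these averages is not an order of transcript amounts.

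*Hpgds* was the only one of the 5 genes that was lower in sorted DCs of sTM-treated cultures. In TM+ DCs of sTM-treated cultures it measured 6.09 and 6.46 in experiment 2, 5.22 and 5.50 in experiment 3 and 6.86 and 6.82 in experiment 4. In TM+ DCs of untreated cultures it measured 8.02 and 8.03 in experiment 3 and 8.32 and 8.21 in experiment 4. All 6 treated arrays thus lay below all 4 untreated arrays, and the 4 untreated arrays were the highest of all 36. The group means were 6.16 ± 0.68 (SD, n = 6) and 8.14 ± 0.15 (SD, n = 4), and within an experiment the level was 6.35-fold lower in experiment 3 and 2.68-fold lower in experiment 4. The 2 treated arrays of experiment 3 lay below 5.76, the 25th percentile of gene means, so that these values came near the dim end of the arrays.

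In TM- DCs *Hpgds* showed a smaller difference of the same sign. The level was 6.12 and 5.88 in experiment 2, 5.43 and 5.51 in experiment 3 and 6.55 and 6.21 in experiment 4 of the sTM-treated cultures, against 6.51 and 6.29 in experiment 3 and 6.80 and 6.78 in experiment 4 of the untreated cultures. The arrays did not overlap within an experiment, but they did across experiments. The difference (sTM minus untreated) was -0.93 log2 units in experiment 3 and -0.41 in experiment 4, which in both experiments was closer to 0 than the -2.67 and -1.42 of TM+ DCs.

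Unsorted DCs did not show the lower level of *Hpgds*. Its level ranged from 5.54 to 6.97 with a median of 6.44 in sTM-treated cultures and from 5.80 to 6.61 with a median of 6.34 in untreated cultures, and the ranges overlapped. The differences were 0.27, -0.11 and 0.12 log2 units in experiments 1, 2 and 3, with a mean of 0.09 ± 0.19 (SD, n = 3). In experiment 3, which holds sorted and unsorted DCs of both cultures, unsorted DCs of the sTM-treated cultures measured 6.59 on both arrays, above all 4 arrays of TM+ and TM- DCs of sTM-treated cultures. No source used here says if sorted and unsorted DCs of an experiment came from one culture, so the unsorted level need not be a mixture of the sorted ones.

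*Ephx1* was higher in sorted DCs of sTM-treated cultures, most of all in TM+ DCs. In TM+ DCs of sTM-treated cultures it measured 9.85 and 9.997 in experiment 2, 9.69 and 9.92 in experiment 3 and 8.96 and 8.61 in experiment 4. In TM+ DCs of untreated cultures it measured 8.51 and 8.52 in experiment 3 and 7.75 and 7.77 in experiment 4. All treated arrays lay above all untreated arrays, although the lowest treated array of experiment 4 was only just above the untreated arrays of experiment 3. Within an experiment the level was 2.44-fold higher in experiment 3 and 2.03-fold higher in experiment 4.

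In TM- DCs the 2 experiments differed for *Ephx1*. The level was 8.28 and 8.65, 8.35 and 8.52, and 7.65 and 7.51 in experiments 2, 3 and 4 of the sTM-treated cultures, against 7.63 and 7.62 in experiment 3 and 7.47 and 7.53 in experiment 4 of the untreated cultures. The arrays were apart in experiment 3, with a difference of 0.81 log2 units, and overlapped in experiment 4, with a difference of 0.08.

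In unsorted DCs *Ephx1* ranged from 6.94 to 9.50 with a median of 8.50 in sTM-treated cultures and from 7.03 to 9.13 with a median of 8.10 in untreated cultures. The ranges overlapped almost wholly, whereas the mean difference was above 0 in each of the 3 experiments (0.15, 0.48 and 0.34 log2 units). The width of the ranges came from the experiments and, in experiment 1, from the arrays: arrays 1 and 2 measured 9.01 and 8.97 in treated and 8.52 and 8.46 in untreated cultures, but arrays 3 and 4 measured 6.94 and 6.99 in treated and 7.31 and 7.03 in untreated cultures. The labels name these 4 arrays biological replicates and say nothing more of how they differ. In experiment 3 both unsorted arrays of the treated cultures, at 8.01 and 8.04, lay below all sorted arrays of the treated cultures of that experiment.

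*Pld4* was also higher in sorted DCs of sTM-treated cultures. In TM+ DCs it measured 10.54 and 10.72 in experiment 2, 10.58 and 10.77 in experiment 3 and 10.33 and 10.24 in experiment 4 of the sTM-treated cultures, against 8.96 and 9.15 in experiment 3 and 9.69 and 9.57 in experiment 4 of the untreated cultures. The treated arrays lay close together, from 10.24 to 10.77, and did not overlap with the untreated arrays. The level was 3.07-fold higher in experiment 3 and 1.57-fold higher in experiment 4, in which the untreated arrays were brighter.

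In TM- DCs *Pld4* measured 8.16 and 8.17, 7.76 and 8.61, and 7.68 and 7.63 in experiments 2, 3 and 4 of the sTM-treated cultures, against 7.42 and 7.29 in experiment 3 and 7.41 and 7.70 in experiment 4 of the untreated cultures. As for *Ephx1*, the arrays were apart in experiment 3 (0.84 log2 units) and overlapped in experiment 4 (0.10). The highest TM- array of either culture, at 8.61, stayed below the lowest TM+ array, at 8.96.

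In unsorted DCs *Pld4* ranged from 7.41 to 10.56 with a median of 8.74 in sTM-treated cultures and from 7.54 to 9.69 with a median of 8.24 in untreated cultures. The mean difference was above 0 in all 3 experiments (0.36, 0.33 and 0.29 log2 units). In experiment 1 this average joined unlike arrays. Arrays 1 and 2 measured 10.56 and 10.53 in treated and 9.69 and 9.66 in untreated cultures, a difference of 0.87, while arrays 3 and 4 measured 7.41 and 7.66 in treated and 7.82 and 7.54 in untreated cultures, a difference of -0.14. The *Pld4* level of arrays 1 and 2 was near that of TM+ DCs, and the level of arrays 3 and 4 near that of TM- DCs.

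*Tspan32* was moderately higher in sorted DCs of sTM-treated cultures. In TM+ DCs of sTM-treated cultures it measured 7.58 and 7.37 in experiment 2, 7.82 and 7.97 in experiment 3 and 6.94 and 6.86 in experiment 4, against 6.98 and 7.05 in experiment 3 and 6.19 and 6.14 in experiment 4 of untreated cultures. The arrays were apart within each experiment but overlapped across experiments, because both cultures were lower in experiment 4. The difference was 0.88 log2 units in experiment 3 and 0.73 in experiment 4.

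In TM- DCs *Tspan32* measured 6.94 and 6.92, 7.43 and 7.70, and 6.32 and 6.53 in experiments 2, 3 and 4 of the sTM-treated cultures, against 7.33 and 7.13 in experiment 3 and 6.20 and 6.27 in experiment 4 of the untreated cultures. The differences, 0.34 and 0.19 log2 units, were below those of TM+ DCs, with narrow gaps between the arrays. In unsorted DCs the level ranged from 6.18 to 7.41 with a median of 6.83 in sTM-treated cultures and from 6.29 to 7.27 with a median of 6.80 in untreated cultures. The unsorted differences had no common sign (0.08, 0.31 and -0.37 log2 units), and in experiment 3 both unsorted arrays of the treated cultures, at 6.68 and 6.82, lay below all 4 sorted arrays of the treated cultures of that experiment.

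*Etfbkmt* had the most even difference across the sorted comparisons and the opposite sign in unsorted DCs. In TM+ DCs of sTM-treated cultures it measured 7.63 and 7.50 in experiment 2, 9.09 and 9.35 in experiment 3 and 8.34 and 8.10 in experiment 4, against 8.04 and 8.21 in experiment 3 and 7.33 and 6.99 in experiment 4 of untreated cultures. In TM- DCs it measured 7.51 and 8.17, 9.60 and 9.16, and 8.08 and 8.05 in experiments 2, 3 and 4 of the treated cultures, against 8.74 and 8.69 in experiment 3 and 7.20 and 7.07 in experiment 4 of the untreated cultures. Within experiments the arrays did not overlap, but the level also moved between experiments, so that the groups overlapped across experiments. The difference was 1.10 and 1.06 log2 units in TM+ DCs and 0.66 and 0.93 in TM- DCs of experiments 3 and 4.

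In unsorted DCs *Etfbkmt* ranged from 7.17 to 8.49 with a median of 7.40 in sTM-treated cultures and from 7.34 to 8.77 with a median of 7.68 in untreated cultures. The difference was -0.31, -0.18 and -0.37 log2 units in experiments 1, 2 and 3, with a mean of -0.29 ± 0.10 (SD, n = 3). In experiments 2 and 3 both unsorted arrays of the treated cultures lay below all 4 sorted arrays of the treated cultures of the same experiment. *Etfbkmt* has a further, dimmer transcript cluster, and its fitted differences had the same signs, 0.24 (standard error 0.07) in sorted and -0.16 (standard error 0.08) in unsorted DCs.

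**Figure D1:**
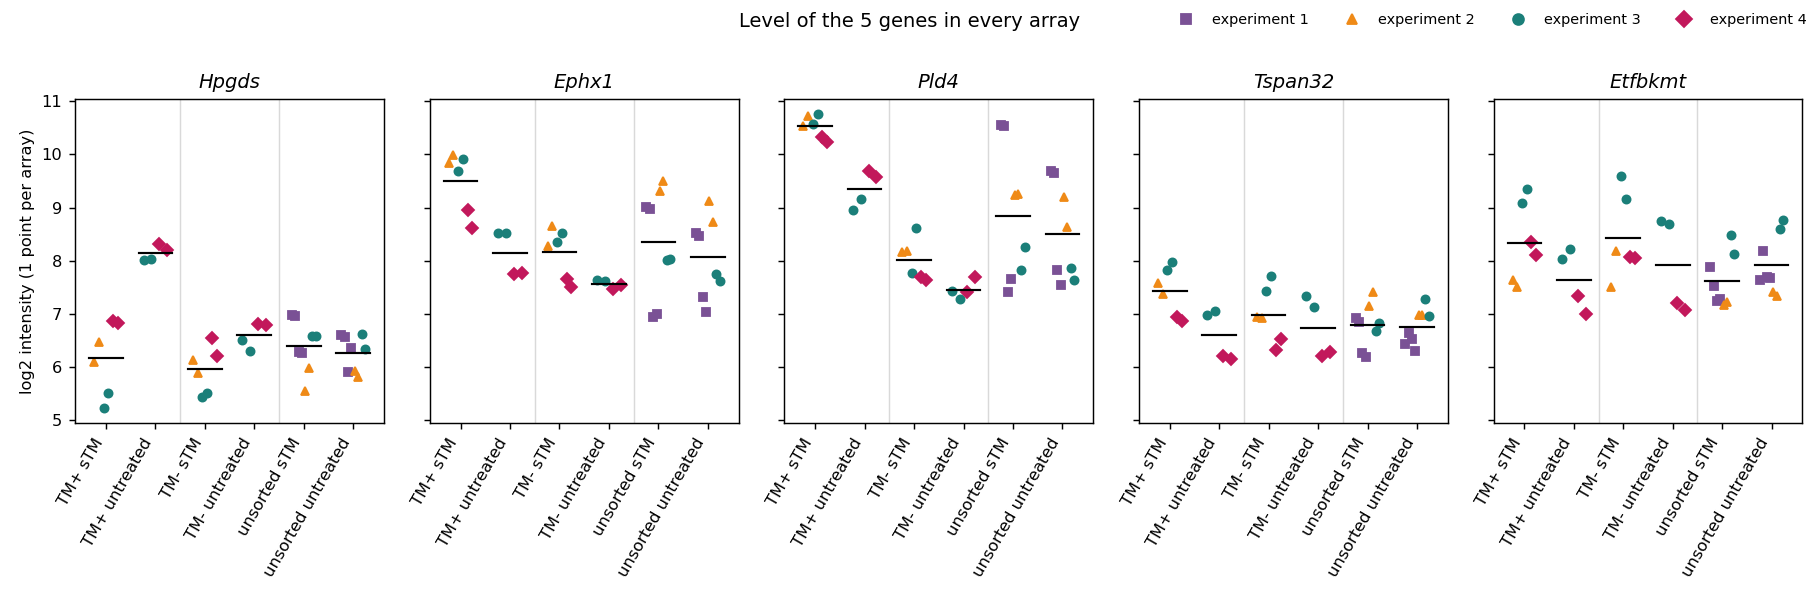
Log2 intensity (y axis) of the 5 genes in each of the 36 arrays, by sorted fraction and culture (x axis). Points are single arrays with the experiment given by colour and shape, and the black line is the mean of a group. *Hpgds* is lower, and *Ephx1* and *Pld4* are higher, in TM+ DCs of sTM-treated than of untreated cultures, with no overlap between the arrays.

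Set side by side, the 5 genes had differences (sTM minus untreated, mean ± SD of 4 comparisons within an experiment and a fraction) of -1.36 ± 0.96 for *Hpgds*, 0.80 ± 0.52 for *Ephx1*, 0.80 ± 0.63 for *Pld4*, 0.53 ± 0.32 for *Tspan32* and 0.94 ± 0.20 for *Etfbkmt*. Each of the 5 kept 1 direction in all 4 comparisons, as did 14.2% of all genes, and nothing is read from this because these arrays chose the genes. In TM+ DCs the arrays of *Hpgds*, *Ephx1* and *Pld4* did not overlap between the cultures, as for 2.48% of all genes. In TM- DCs 0 of the 5 genes had no overlap, against 0.737% of all genes.

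The difference was larger in size in TM+ than in TM- DCs for each of the 5 genes in both experiments, and this too draws on the arrays that chose them. Means over experiments 3 and 4 were -2.04 in TM+ and -0.67 in TM- DCs for *Hpgds*, 1.15 and 0.45 for *Ephx1*, 1.14 and 0.47 for *Pld4*, 0.81 and 0.26 for *Tspan32* and 1.08 and 0.80 for *Etfbkmt*. *Etfbkmt* had the smallest gap between the fractions, 0.43 log2 units in experiment 3 and 0.14 in experiment 4.

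In unsorted DCs the range of the treated arrays overlapped with that of the untreated arrays for all 5 genes, as it did for all but 0.00502% of all genes. *Ephx1*, *Pld4* and *Etfbkmt* kept 1 direction in the 3 experiments, which 30.2% of all genes did. Mean differences were 0.32 ± 0.17 for *Ephx1*, 0.33 ± 0.04 for *Pld4* and 0.01 ± 0.35 for *Tspan32* (SD, n = 3 experiments). The *Pld4* mean ran from 0.16 to 0.51 when 1 array was left out, and its small SD hides the 0.87 and -0.14 of the array pairs in experiment 1. The ranks behind the name of genes most responsive to sTM used the sorted arrays, and no rank in the unsorted arrays is given here.

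**Figure D2:**
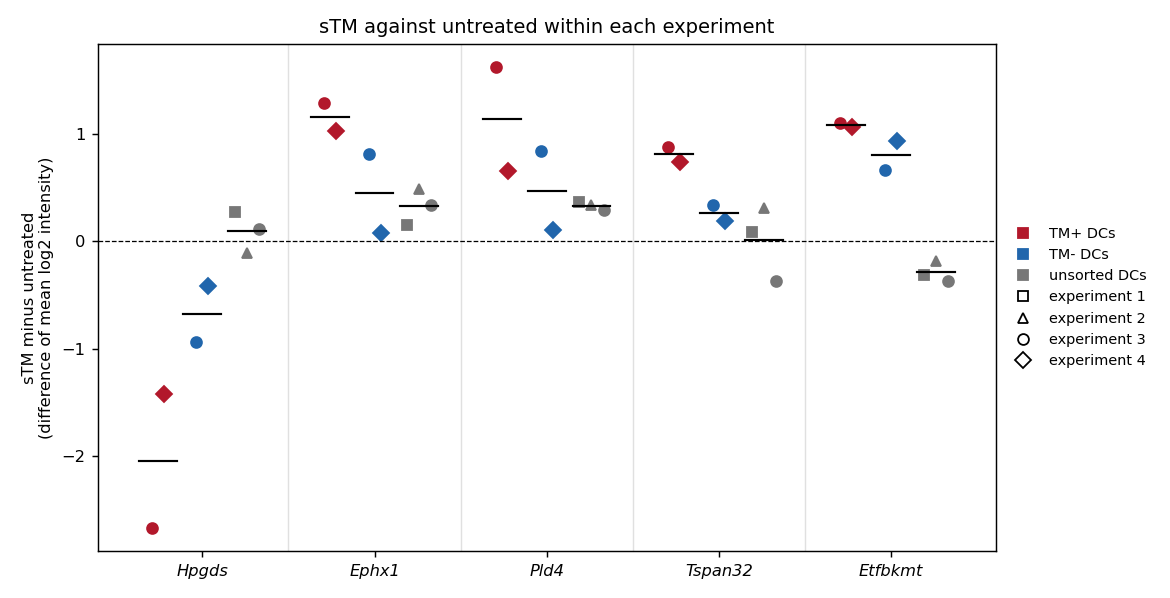
Difference between sTM-treated and untreated cultures (y axis, log2 units, sTM minus untreated) for each gene (x axis). Each point is 1 experiment in TM+, TM- or unsorted DCs, shown by colour, and the black line is the mean. In TM+ DCs *Hpgds* lies at -2.67 and -1.42 and the other genes lie between 0.65 and 1.62, while the unsorted points lie between -0.37 and 0.48.

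As values that chose the genes, the fitted limma difference was -1.35 (standard error 0.14) for *Hpgds*, 0.85 (standard error 0.12) for *Ephx1* and 0.82 (standard error 0.13) for *Pld4*, ranks 1 to 3 by p. The gene just outside, at rank 4, was *Azin2* with 0.60 (standard error 0.11), and *Tspan32* and *Etfbkmt* stood at ranks 12 and 21. By PWF of treatment, *Etfbkmt* had 59.96, *Tspan32* 57.98 and *Hpgds* 53.4, followed by *Zc3h6* just outside with 43.4. *Ephx1* stood at rank 91 and *Pld4* at rank 968 of the 35556 transcript clusters by this measure, because PWF is small for a term when another term has a large F-value. At an adjusted p under 0.05, limma called 0.015% of all genes for sTM in sorted DCs, 0.853% in TM+ DCs, 0% in TM- DCs and 0% in unsorted DCs. An unadjusted p under 0.05 was reached by 722 of 19938 genes in TM- and 940 in unsorted DCs. Both counts are below the share of 0.05 that would pass on average with no response, but this depended on the setting. With experiment as a fixed factor they were 1059 and 1250, above that share, and with the block by replicate number 710 and 1961. In the main fit 2026 genes reached it in TM+ DCs and 1607 in sorted DCs as a whole.

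*Hpgds*, *Ephx1* and *Pld4* were higher in TM+ than in TM- DCs. The limma rank that placed these 3 genes used the treatment term and not this comparison. However, both terms came from the same fit to the same sorted arrays and shared the residual variance of a gene. A choice by small treatment p-values favours a small residual variance, which also lowers the p-values of sorting. The p-values of these 3 genes are therefore given as a description and not as an independent test. *Hpgds* was placed by PWF as well, where a large F-value of sorting counts against a gene. Averaged over both cultures, *Pld4* was 4.62-fold higher, with a log2 difference of 2.21 (standard error 0.12, limma adjusted p = 4.76e-11). *Ephx1* was 1.94-fold higher, at 0.96 (standard error 0.12, limma adjusted p = 1.61e-06), and *Hpgds* 1.84-fold higher, at 0.88 (standard error 0.13, limma adjusted p = 2.1e-05). Calls were common in this comparison, since limma called 37.3% of all genes.

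Within a culture the sorting difference also contains the TM+ arrays that chose the genes, and it is given with no p-value. For *Pld4* it was 2.52 log2 units in sTM-treated cultures and 1.89 in untreated cultures. For *Ephx1* it was 1.34 in sTM-treated cultures and 0.58 in untreated cultures. For *Hpgds* it was 0.21 in sTM-treated cultures and 1.55 in untreated cultures, which restates that *Hpgds* was lower by more in TM+ than in TM- DCs of sTM-treated cultures.

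By experiment, *Pld4* was 2.46, 2.49 and 2.63 log2 units higher in TM+ DCs in experiments 2, 3 and 4 of the sTM-treated cultures, and 1.70 and 2.07 higher in experiments 3 and 4 of the untreated cultures. *Pld4* and *Ephx1* were higher in TM+ DCs in 10 of 10 array pairs, as were 8.26% of all genes, and *Hpgds* was higher in 7 of 10. *Pld4* was the only one of the 5 genes whose 10 TM+ arrays did not overlap with the 10 TM- arrays, against 3.17% of all genes.

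For *Tspan32* and *Etfbkmt* the sorting difference is a description, since a small F-value of sorting favoured them in the choice by PWF. The fitted difference was 0.15 (standard error 0.10) for *Tspan32*, which was higher in TM+ DCs in 6 of 10 pairs, and -0.19 (standard error 0.16) for *Etfbkmt*, which was higher in 5 of 10. *Tspan32* was higher in TM+ DCs of the sTM-treated cultures in every experiment (0.55, 0.32 and 0.47 log2 units) and lower in TM+ DCs of the untreated cultures in both (-0.22 and -0.07). *Etfbkmt* had no common sign within either culture.

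**Figure D3:**
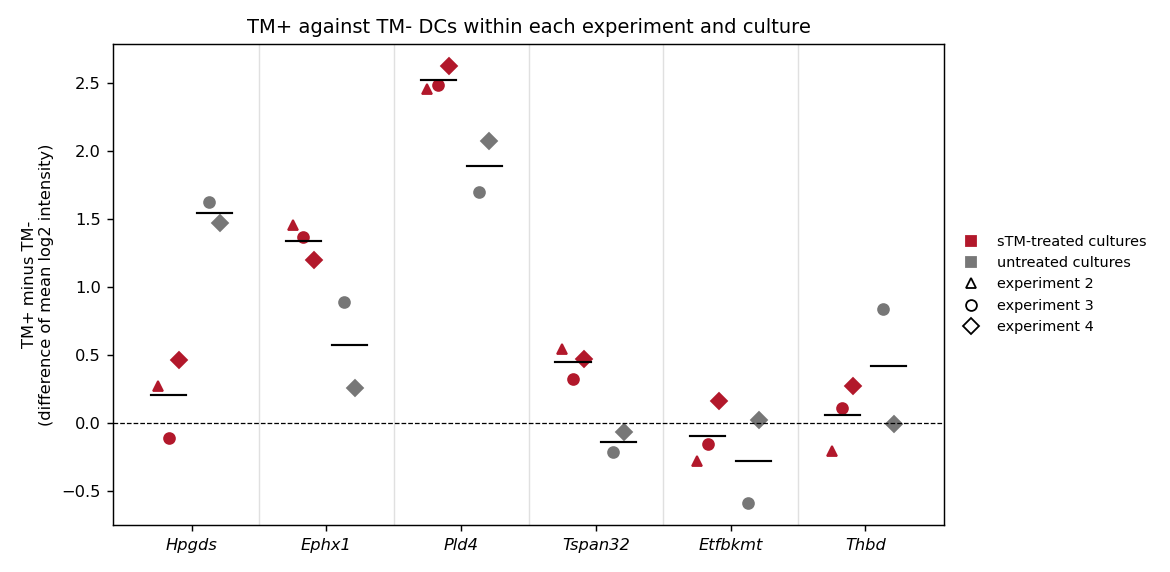
Difference between TM+ and TM- DCs (y axis, log2 units, TM+ minus TM-) within each experiment for sTM-treated and untreated cultures, shown by colour, for the 5 genes and for *Thbd* (x axis). Each point is 1 experiment and the black line is the mean. *Pld4* lies between 1.70 and 2.63 in all 5 comparisons, and *Hpgds* lies between -0.11 and 0.46 in sTM-treated cultures and at 1.62 and 1.47 in untreated cultures.

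Likeness between genes was described by the correlation of their levels over the 32 arrays of the experiments and fractions that hold both cultures, after the mean of each experiment and fraction was subtracted. These arrays share experiments, and the correlation includes the differences that chose the genes. It also includes the gap between arrays 1 and 2 and arrays 3 and 4 of experiment 1, whose 8 arrays held 74.0% of the centred sum of squares of *Pld4* and 60.01% of that of *Ephx1*, but 8.18% for *Hpgds*. *Ephx1* and *Pld4* were each other's closest gene among all 19938 (r = 0.96, and 0.92 over the 24 arrays without experiment 1, still the closest), and their uncentred levels had r = 0.82 over the 36 arrays. Next to *Ephx1* came *F5* (0.95), coagulation factor V, and *Igf1* (0.92), insulin-like growth factor 1. Next to *Pld4* came *Fcrls* (0.94), an Fc receptor-like scavenger protein, and *Hfe* (0.94), a regulator of iron uptake. Without experiment 1 *F5* and *Fcrls* were each the 5th closest gene, while *Igf1* stood at rank 26 (0.85) and *Hfe* at rank 82 (0.81). Fitted differences for sTM in sorted DCs were 0.80 for *F5*, 0.42 for *Igf1*, 0.66 for *Fcrls* and 0.34 for *Hfe*.

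*Hpgds* was most like *Cldn1* (0.88), a claudin of tight junctions, *Cd177* (0.88), a surface glycoprotein of neutrophils, and *Stfa2* (0.85), a stefin that inhibits cysteine proteases. *Tspan32* was most like *Flrt2* (0.84), *Cd59a* (0.82), an inhibitor of complement lysis, and *Fbp1* (0.81), a gluconeogenic phosphatase. *Etfbkmt* was most like *AI987944* (0.85), *Prr15* (0.85) and *Abcd3* (0.84), a peroxisomal transporter. Without experiment 1 *Cldn1*, *Cd177* and *Stfa2* stood at ranks 8, 2 and 11, and *Flrt2*, *Cd59a* and *Fbp1* at ranks 8, 14 and 25. *AI987944*, *Prr15* and *Abcd3* then stood at ranks 2, 5 and 24. Among the 5 genes, *Hpgds* ran against *Etfbkmt* (-0.70) and *Tspan32* (-0.62), and *Tspan32* ran with *Ephx1* (0.79) and *Etfbkmt* (0.74). Leaving out experiment 1, a choice made after seeing the data, changed how far *Hpgds* ran against *Ephx1* (-0.33, and -0.86 without it) and *Pld4* (-0.19, and -0.84 without it).

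**Figure D4:**
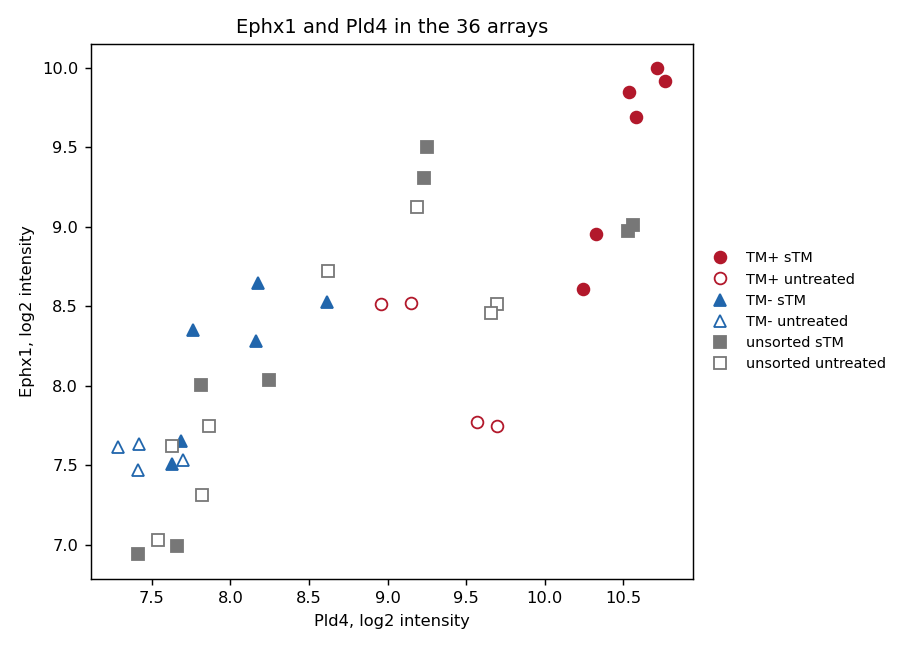
Log2 intensity of *Ephx1* (y axis) against that of *Pld4* (x axis) in the 36 arrays, with the fraction given by shape and colour and the culture by filled (sTM) or open (untreated) symbols. The TM+ arrays of sTM-treated cultures hold the 6 points from 10.24 to 10.77 on the *Pld4* axis, joined there by 2 unsorted arrays of experiment 1.

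Genes of the same pathways were taken from lists, without the genes described here. In sorted DCs as a whole, limma called 3 of 19938 genes for sTM, and these were *Hpgds*, *Ephx1* and *Pld4*. In TM- DCs and in unsorted DCs it called 0 of all genes. That 0 list genes were called in these comparisons follows from this and says nothing of the pathways. In the list counts below, higher or lower in TM+ DCs means called for sorting, as were 37.3% of all genes (3709 higher and 3729 lower). For sTM in TM+ DCs the share of all genes called was 0.853%. Of 13 other genes of prostaglandin D2 synthesis, signalling and breakdown, 3 were higher and 4 lower in TM+ than in TM- DCs. The largest were *Ptgs2*, the inducible cyclooxygenase that makes the substrate of *Hpgds*, at -3.17 log2 units (standard error 0.52, limma adjusted p = 6.09e-05), and *Pparg*, a nuclear receptor for prostaglandin D2 metabolites, at 1.06 (standard error 0.21, limma adjusted p = 0.000356). The median sTM difference of the list was -0.02 log2 units in sorted DCs, beside 0.00 over all genes, and 0 of 13 genes were called in TM+ DCs. *Hpgds* is also a sigma-class glutathione transferase, and of 21 other glutathione transferases 1 was called for sTM in TM+ DCs, *Gstk1*, at -1.01 (standard error 0.23, limma adjusted p = 0.0402). *Gstk1* was higher by 1.18 in TM+ than in TM- DCs (standard error 0.16, limma adjusted p = 4.59e-06), among 4 transferases that were higher and 7 that were lower.

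Of 27 other epoxide hydrolases and enzymes of xenobiotic metabolism, TM+ DCs had 5 at a higher and 5 at a lower level, and 0 were called for sTM in TM+ DCs. *Cyp4f18*, which hydroxylates leukotriene B4, was higher by 1.55 (standard error 0.22, limma adjusted p = 1.29e-05), and heme oxygenase *Hmox1* was lower, at -1.41 (standard error 0.21, limma adjusted p = 1.83e-05). Of 16 other genes of the phospholipase D family and of endolysosomal nucleic acid handling, 6 were higher and 2 lower in TM+ DCs. They were led by *Tlr8*, an endosomal receptor for RNA, at 2.08 (standard error 0.21, limma adjusted p = 1.39e-07), and *Dnase2a*, a lysosomal nuclease, at 0.84 (standard error 0.09, limma adjusted p = 1.53e-07), and 0 of the 16 were called for sTM in TM+ DCs.

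Of 24 other tetraspanins, 6 were higher and 6 lower in TM+ DCs, with *Tspan13* at -1.04 and *Tspan14* at 0.92 as the largest. For sTM in TM+ DCs, *Cd81* was called higher, at 0.54 (standard error 0.13, limma adjusted p = 0.0492), and *Tspan2* lower, at -0.68 (standard error 0.14, limma adjusted p = 0.0258). Of 22 other genes in a list of electron transfer flavoprotein, its dehydrogenases and methyltransferases of other proteins, 9 were higher and 1 lower in TM+ DCs. The largest was 1 of those methyltransferases, *Eef1akmt1*, at 0.90 (standard error 0.21, limma adjusted p = 0.00222). *Etfb*, the substrate of *Etfbkmt*, was higher by 0.71 (standard error 0.12, limma adjusted p = 0.000109), and 0 of the 22 were called for sTM in TM+ DCs. The number of genes called for sTM in TM+ DCs, 170, was unstable, with 75 under the block by replicate number, 20 without experiment 2, 357 without experiment 3 and 637 without experiment 4.

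Markers of other cell types also moved with sorting and, in TM+ DCs, with sTM. Of 18 neutrophil markers, 4 were called lower for sTM in TM+ DCs, among them *Ltf* at -2.19 (standard error 0.37, limma adjusted p = 0.009), *S100a9* at -1.91 and *Camp* at -1.28, and 1 was called higher, *Mmp9*, at 2.03. These fitted values also draw on treated arrays of experiment 2, which has no untreated sorted arrays. Within an experiment, the TM+ differences of the 18 markers ran from -3.29 to 2.36 in experiment 3 and from -1.40 to 0.87 in experiment 4. The median of the list was -0.44 in TM+ DCs, -0.09 in TM- DCs and 0.21 in unsorted DCs, and 12 of the 18 were higher and 2 lower in TM+ than in TM- DCs. Their summed intensity ran from 27125 to 35579 in TM+ DCs of sTM-treated cultures and from 23644 to 35590 in TM+ DCs of untreated cultures, so that the sums overlapped. These are sums of linear intensities, in which the few brightest markers weigh most, so that they say little of *Ltf*, *S100a9* or *Camp*.

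Of 18 mast cell and basophil markers, *Mcpt2* at -2.73 (standard error 0.45, limma adjusted p = 0.00809) and *Mcpt1* at -2.03 were called lower for sTM in TM+ DCs, with a list median of -0.19. The experiments differed in size, since the lowest TM+ difference of any of the 18 was -4.57 in experiment 3 and -0.79 in experiment 4. *Mcpt1* and *Mcpt2* were themselves dim, with averages of 5.14 and 5.03 log2 units, as were the receptor genes *Ms4a2* (4.56) and *Fcer1a* (5.56). Other genes of the list were not dim, with *Hdc* at 10.01, *Gata2* at 9.73, *Kit* at 7.59 and *Cpa3* at 6.49, and 9 of the 18 lay below the 25th percentile. The summed linear intensity of the list, in which the brightest genes weigh most, ran from 2391 to 3548 in treated and from 2824 to 3730 in untreated TM+ DCs. Of 8 eosinophil markers, 5 were called higher and 0 lower in TM+ DCs when set against TM- DCs (*Epx* 2.11, *Siglecf* 1.95, list median 0.73). For sTM in TM+ DCs 6 of the 8 lay below 0, with a median of -0.19 and 0 called, beside a median of -0.02 over all genes. The 14 T and NK cell markers, of which 10 lay below the 25th percentile, had the same median of -0.19, with 12 below 0 and 2 above. A median of this size was thus not particular to mast cell or eosinophil markers. Of 14 macrophage markers, TM+ DCs had 8 at a higher and 2 at a lower level than TM- DCs (*Mrc1* 2.76, *C1qb* 1.97). The part of these cells in the values of *Hpgds*, *Ephx1* and *Pld4* was not tested. Of 20 conventional DC markers, *Itgae* at -1.94 and *Ciita* at -0.82 were called lower for sTM in TM+ DCs, and of the macrophage markers *C1qb* was, at -1.12. The median of the 20 conventional DC markers was 0.04 in that comparison, with 11 above 0 and 9 below. Between the fractions, 11 of the 20 were called higher and 7 lower in TM+ DCs, with *Cd83* at -2.19 as the largest.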

How the data were processed

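RNA of unsorted and sorted DCs was measured on 36 Affymetrix mouse whole-transcript arrays. The authors normalized and summarized the probes with the RMA procedure (APT 1.12.0, NetAffx release 31) and deposited linear intensities of 35556 transcript clusters. No source used here says if the arrays were normalized as 1 set. Detection calls were not used. The log2 of the deposited intensities was taken here with no pseudocount. Symbols came from the platform annotation (1 symbol for 21789 clusters, several for 1621, none for 12146), and the cluster with the highest mean was kept per symbol. This left 19938 genes, of which 999 had more clusters and 19856 matched RefSeq. Precision is limited by how many arrays a group has.

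In R 4.3.3, limma 3.58.1 (with statmod 1.5.0 for the block) fitted sorting, treatment and their interaction to the 20 sorted arrays, with experiment as a random block (within-block correlation 0.40), and treatment with the same block to the 16 unsorted arrays. P-values were adjusted by the Benjamini-Hochberg method over all genes, and a gene was called at an adjusted p under 0.05. RMA sets arrays that it normalizes together to one distribution, so a shift of all genes would not be seen. PWF was computed by restricted maximum likelihood in Python 3.11.15 (numpy 2.4.6, pandas 2.3.3) and checked against lme4 1.1.37. Fits were tested on simulated data first. The named genes are the 5 genes, the next in rank, the 3 most alike per gene, *Thbd*, and, per list, up to 4 genes called for sTM and the 2 with the largest called sorting difference, which for brevity are given in part. *Itgax*, *Cd74*, *H2-Aa*, *Xcr1* and the mast cell genes named for their level were picked for naming after seeing their values. The genes, lists and tests were chosen with earlier results of these data known.

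Other settings tried were experiment as a fixed term or left out, blocks by replicate number, a filter on genes below the 25th percentile, all clusters, quantile normalization, centring on the 75th percentile, trend and robust moderation, and fits without 1 array or without 1 experiment.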

Additional observations from a re-analysis of the deposited data

Results flagged for a closer look

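The response of *Etfbkmt* had opposite signs in sorted and unsorted DCs. Its difference (sTM minus untreated) was above 0 in all 4 comparisons of sorted DCs, with a mean of 0.94 ± 0.20 log2 units (SD, n = 4), and below 0 in all 3 experiments of unsorted DCs, with a mean of -0.29 ± 0.10 (SD, n = 3). The means were 1.23 log2 units apart. The difference was not tested, because both sets of arrays are named in the rule for these genes. The ranks that placed *Etfbkmt* used the sorted arrays only, so the choice favoured a large difference there and with it a wide gap.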

How the results depend on the processing

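The sorting differences of *Hpgds*, *Ephx1* and *Pld4* kept their direction and their call under all 11 other settings. They also did so in each of 20 fits without 1 array. Their log2 differences lay between 0.76 and 0.94, 0.79 and 1.15, and 2.09 and 2.31. These calls are not independent of the choice of the genes, which used the same sorted arrays. The replicate numbers did not pair the arrays throughout: deviations of same-numbered sorted arrays had a median correlation of 0.09 (10 of 26 pairs above 0.1). In unsorted DCs same-numbered arrays correlated at 0.56 to 0.75 in experiment 1, where 4 of 12 pairs of other numbers also did so above 0.1, at 0.03 in experiment 2 and at 0.13 in experiment 3. With the replicate block the sorting difference of *Hpgds* had an adjusted p of 0.00015, and 6815 genes were called for sorting and 3 for sTM in sorted DCs. In unsorted DCs 4 genes were called with the replicate block (1961 against 940 at an unadjusted p under 0.05), 1 after centring on the 75th percentile and 0 to 5 without 1 array, against 0.

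Genes called for sorting numbered 7438 (3709 higher and 3729 lower in TM+ DCs). They numbered 4827 with no experiment term, 2469 without experiment 4 and 11981 after centring on the 75th percentile (2941 higher and 9040 lower), which moved the median difference of all genes from -0.08 to -0.20. For sTM in sorted DCs 3 genes were called, 112 with experiment as a fixed factor, 13 without dim genes, 23 after quantile normalization, 13 after centring, 5 with trend and robust moderation, 85 without experiment 3, 454 without experiment 4 and 2 to 17 without 1 array.

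Chosen after seeing the data, the arrays of experiment 1 were also described apart. Over arrays 1 and 2 of experiment 1, the difference (sTM minus untreated) was 0.39 for *Hpgds*, 0.50 for *Ephx1*, 0.87 for *Pld4*, 0.35 for *Tspan32* and -0.21 for *Etfbkmt*. Over arrays 3 and 4, it was 0.15 for *Hpgds*, -0.21 for *Ephx1*, -0.14 for *Pld4*, -0.18 for *Tspan32* and -0.42 for *Etfbkmt*. Without 1 array the unsorted *Pld4* difference ran from 0.16 to 0.51. The causes of these changes were not tested.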
